A study of Fundulus heteroclitus with 53 samples.

Results

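The liver transcriptome of New Bedford Harbor (NBH) killifish after severe hypoxia was compared with that of NBH control fish. The comparison was chosen by sample label: RNA-seq libraries labelled NBH with 5% hypoxia (5 fish) against NBH libraries labelled control (5 fish). These are 10 of the 53 samples of the series and 10 of its 30 RNA libraries. The study set Atlantic killifish (Fundulus heteroclitus) from NBH, a site polluted with dioxin-like compounds where fish have become resistant to them, beside fish from Scorton Creek (SC), a clean reference site. It asked whether the populations differ in their response to low oxygen. Each population had control, mild hypoxia (10% oxygen) and severe hypoxia (5% oxygen) groups. The other samples are bisulfite libraries that were not analysed here.

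All 10 fish were juveniles 6 months old, bred in the laboratory from wild NBH parents. The severe hypoxia fish were placed singly in dishes inside hypoxia chambers gassed with 5% oxygen for 6 h. The control fish were held in room air on the bench. The number of parents was small, and the chamber and the low oxygen cannot be told apart, since control fish were not in a chamber. Each library is 1 liver, so that p-values speak of the variation between individual fish, some of which may share parents.

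When oxygen is short, prolyl hydroxylases of the egln family stop marking the alpha subunits of hypoxia-inducible factor (HIF) for destruction by the vhl ubiquitin ligase complex. HIF bound to arnt then turns on genes for glycolysis, oxygen supply and its own inhibitors. The liver stores glycogen, makes and oxidises fatty acids and secretes most plasma proteins, and these costly tasks are known to be cut back in fish exposed to hypoxia. The protein arnt is also the partner of the aryl hydrocarbon receptor, through which dioxin-like compounds act.

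Levels are given as counts-per-million (CPM) after TMM scaling, which takes out differences in depth and in the composition of the libraries, and values per fish are listed for fish 1 to 5 of each group. Severe hypoxia libraries 1 to 4 held 16.1 to 19.2 M counts and library 5 held 4.96 M, against 7.22 to 16.5 M in control libraries. Severe hypoxia fish 5 stood apart: its mean distance to the other fish of its group was 168 in log2 CPM over all genes, against 119 to 126 for the other severe fish and 101 to 107 for control fish. It had the lowest value of the 10 fish in 3982 genes and the highest in 2491. Results are therefore also given without it. The study itself left out an NBH severe hypoxia fish as an outlier and did not give its replicate number. The composition of the libraries moved with the treatment, as the 10 most abundant genes took 30.5% ± 1.71 of the counts in severe fish and 38.3% ± 3.14 in control fish (SD, n = 5 each, exact permutation test, two-sided, p = 0.00794, the smallest that 5 against 5 fish can give). Fold changes are thus relative to the typical gene, and leaving out the TMM factors moved the median over all genes up by 0.43 (log2). The TMM factors were 0.976 to 1.16 in severe libraries and 0.765 to 0.864 in control libraries. Summed levels of lists are given after this scaling, and a lower sum in severe fish can depend on it.

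Of 13609 genes tested, 1900 (14%) were differentially expressed at an adjusted p-value under 0.05 (edgeR quasi-likelihood test, Benjamini-Hochberg), 1014 (7.45%) upregulated and 886 (6.51%) downregulated in severe hypoxia. Without severe fish 5 there were 2431 (17.9%), 1282 (9.42%) upregulated and 1149 (8.44%) downregulated. In all, 1669 genes passed in the same direction both ways, which is 87.8% of the 1900. Of the 1900 genes, 918 changed by more than 1 on the log2 scale, and in 994 all severe fish lay beyond all control fish. Such a separation of the 10 fish was found in 9.01% of all genes tested. The balance of directions depended on the scaling, with 4216 genes upregulated and 328 downregulated without TMM factors. There were 993 when only the 10 libraries compared were fitted, and leaving out severe fish 3 brought the downregulated genes to 561.

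**Figure D1:**
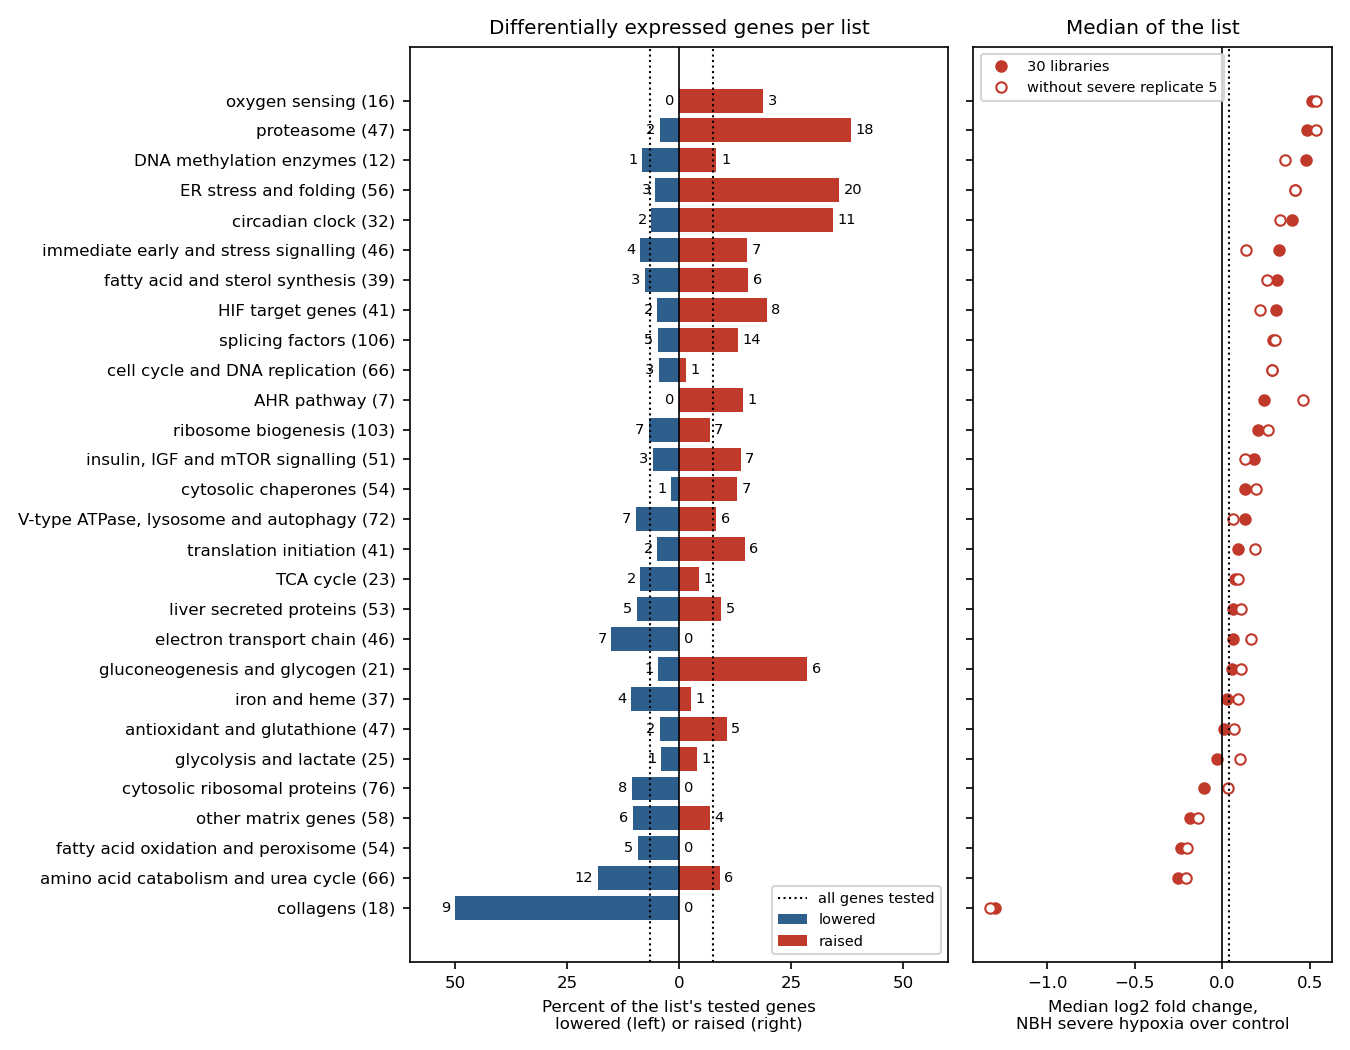
Gene lists in NBH liver. The left panel shows the percent of each list's tested genes (number tested in brackets) that were lowered or raised in severe hypoxia against control, with the counts at the bars and the share over all 13609 genes as dotted lines, and the right panel shows the median log2 fold change with 30 libraries and without severe fish 5. The lists of the proteasome (18 raised), ER folding (20 raised) and the circadian clock (11 raised) lie far to the right, and collagens (9 lowered of 18) to the left.

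Among genes with a symbol and a mean of 10 CPM or more in the 10 fish, the largest increase was that of elovl6, the elongase that makes C18 fatty acids (chromosome 23, bases 14143808 to 14163359 in the MU-UCD_Fhet_4.1 assembly). Its level was 222, 48.0, 402, 218 and 112 CPM in severe fish and 3.03, 3.08, 0.891, 1.6 and 18.2 CPM in control fish. Every severe fish was above every control fish, of which control fish 5 stood out, and the log2 fold change was 5.15 ± 0.87 (SE, adjusted p = 0.000402). In brackets here and elsewhere, the first value is a log2 fold change, with its SE where one is given, and the second its adjusted p by the same edgeR test. Among the other genes with large increases were pfkfb4b, an enzyme that sets the level of the glycolytic activator fructose 2,6-bisphosphate (2.79, adjusted p = 0.00163), hsp90b1, the HSP90 of the endoplasmic reticulum (ER) (2.37, 0.000252), coq8b, a kinase-like protein needed for coenzyme Q synthesis (2.53, 0.0016), and mibp, a nicotinamide riboside kinase of muscle (2.82, 0.000495), all by edgeR's quasi-likelihood test.

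These genes, elovl6 included, were chosen among those with severe fish 1 to 4 above all control fish. Severe fish 5 lay above all control fish in each of them too. The level of pfkfb4b was 26.4, 37.9, 65.4, 122 and 112 CPM in severe fish and 4.67, 7.25, 7.87, 10.3 and 22 CPM in control fish, so that fish 4 and 5 were highest. For mibp the values were 11.5, 14.5, 20.4, 40.2 and 76.3 CPM in severe fish and 5.13, 2.72, 3.41, 7.70 and 3.91 CPM in control fish. The clock repressors cry1b and per1b, the transcriptional repressor bcl6ab, the fatty acid binding protein fabp4a, and ppp1r3b, which brings protein phosphatase 1 to glycogen, were raised by 2.25, 1.94, 2.17, 1.75 and 1.91 on the log2 scale (adjusted p from 3.72e-05 to 0.0127, same test). Among genes known only by a locus number, LOC105917706 on chromosome 19 had 976, 279, 1608, 1079 and 580.4 CPM in severe fish and 58.4, 96.6, 12.2, 77.2 and 30.6 CPM in control fish, a log2 fold change of 4.04 ± 0.64 (adjusted p = 0.000214).

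**Figure D2:**
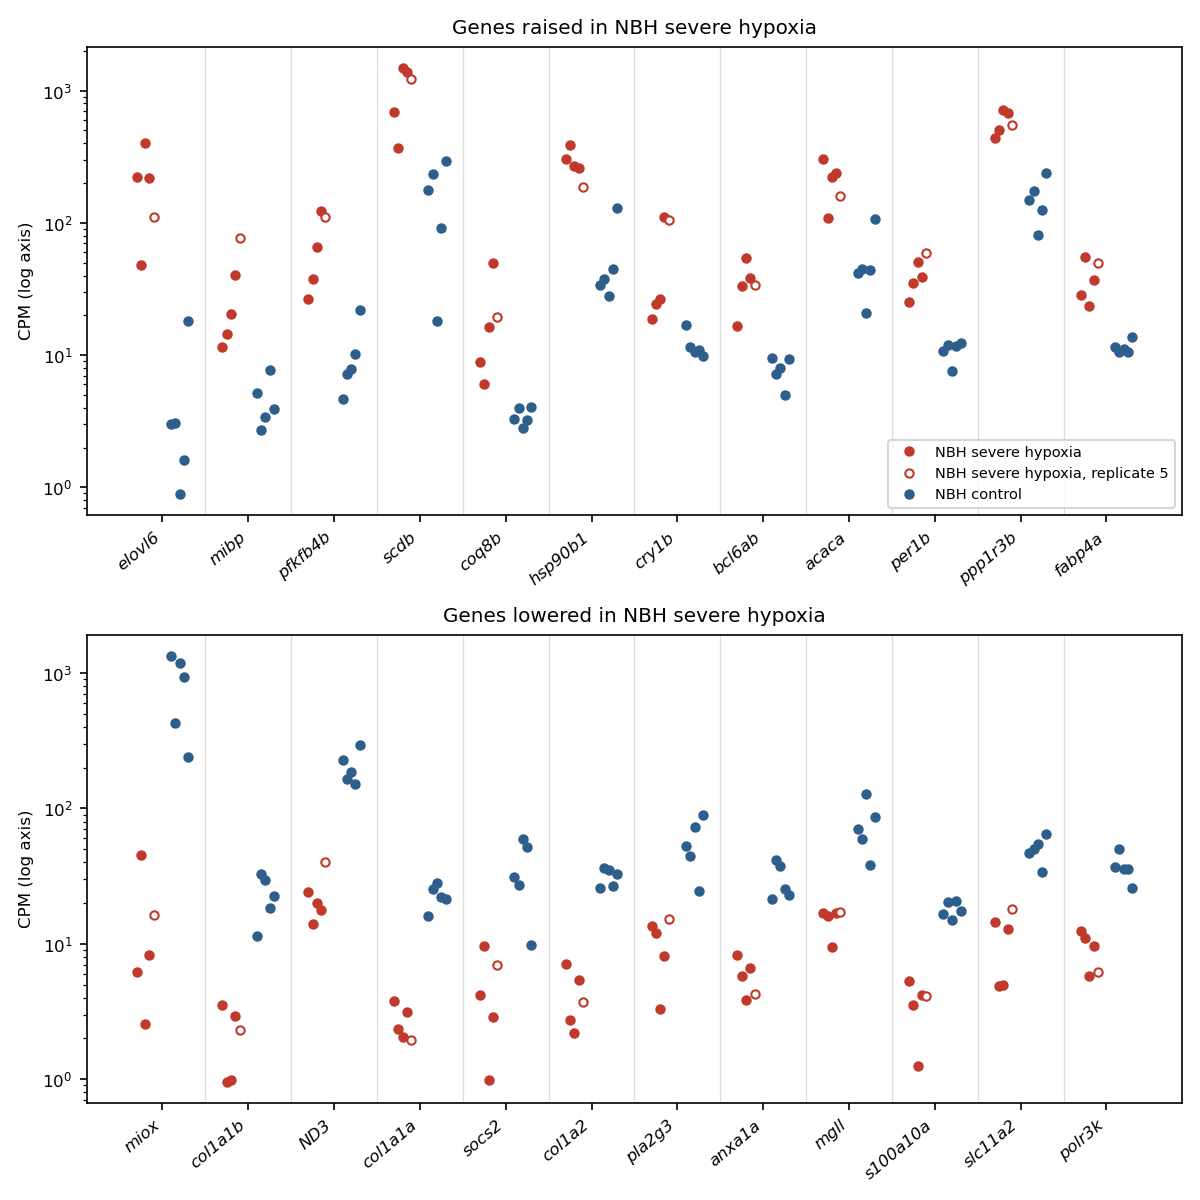
CPM per fish (log axis) of the 12 upregulated and the 12 downregulated genes with a symbol that had the largest log2 fold change in NBH severe hypoxia (red, left, fish 5 open) against NBH control (blue, right), among those at 10 CPM or more that passed with and without fish 5 and in which severe fish 1 to 4 lay beyond all controls. The choice thus used the separation of those fish, severe fish 5 lies beyond the controls in every gene too, and the fold change was largest in elovl6 and miox.

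The largest decrease among such genes was that of miox, inositol oxygenase, the enzyme that opens the ring of myo-inositol with molecular oxygen (chromosome 2, bases 20098193 to 20103528). It had 6.21, 45.3, 2.55, 8.21 and 16.3 CPM in severe fish and 1336, 425, 1189, 939.5 and 238 CPM in control fish, and every severe fish was lower than every control fish. The log2 fold change was -5.72 ± 1.16 (SE, adjusted p = 0.00187, edgeR quasi-likelihood test). An uncharacterised gene, LOC105925278 (chromosome 6, bases 6365781 to 6381772), had 0.0986, 0.319, 0, 0 and 0 CPM in severe fish and 67.5, 60.2, 49.1, 48.4 and 112 CPM in control fish (log2 fold change -9.50, adjusted p = 0.00362). It had at most 5 counts in a severe library and up to 1432 in a control library, so that the size of its fitted fold change depends on the prior count.

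The alpha chains of type I collagen were downregulated together. The level of col1a1b (chromosome 10, bases 16049752 to 16073553) was 3.55, 0.957, 0.986, 2.90 and 2.31 CPM in severe fish and 11.4, 32.6, 29.4, 18.4 and 22.5 CPM in control fish, with a log2 fold change of -3.41 ± 0.49 (adjusted p = 8.42e-05). Likewise col1a1a and col1a2 fell by 3.06 and 2.88 on the log2 scale (adjusted p = 5.12e-05 and 0.000117, edgeR quasi-likelihood test). In whole liver, fewer cells of a type and less RNA per cell cannot be told apart. Other genes with large decreases were socs2, a feedback inhibitor of growth hormone signalling (-2.90, 0.00317), mgll, which releases fatty acids from monoacylglycerol (-2.33, 0.000227), and the phospholipase pla2g3 (-2.47, 0.00312). The list went on with anxa1a and s100a10a, a calcium-binding annexin and an annexin partner (-2.36 and -2.31), slc11a2, an iron importer (-2.20, 0.000645), and polr3k, a subunit of RNA polymerase III (-2.01, 0.000105).

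Of 16 genes of the oxygen-sensing machinery, 3 were upregulated (median log2 fold change of the list 0.51, against 0.04 for all genes), and 6 without severe fish 5. The counts of this list and of those below stand beside 7.45% raised and 6.51% lowered over all genes tested, and 9.42% and 8.44% without fish 5. List counts without TMM factors stand beside 4216 raised and 328 lowered of all 13609 genes in that fit (median log2 fold change 0.47). A count near these shares is not particular to its list. The largest log2 fold change was that of egln3, a prolyl hydroxylase that is itself a HIF target (chromosome 19, bases 33648879 to 33661406). It had 1.04, 0.255, 2.91, 8.76 and 4.97 CPM in severe fish and 0.117, 0.181, 0.594, 0.321 and 0.234 CPM in control fish, which overlapped in severe fish 2. Its log2 fold change was 3.62 ± 1.06 (adjusted p = 0.0227). The call was lost without severe fish 4 or control fish 1 (adjusted p = 0.0814 and 0.0557), and the level stayed low in every NBH fish. In SC fish egln3 averaged 198 CPM in severe hypoxia and 0.419 CPM in control, a log2 fold change of 8.79. The difference between the populations was -5.17 ± 1.80 (SE) and did not pass the test over all genes (adjusted p = 0.298).

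Among the alpha subunits, hif1al was upregulated, with 52.2, 48.1, 95.9, 125 and 118 CPM in severe fish and 26.4, 24.3, 19.6, 28.9 and 37.7 CPM in control fish (log2 fold change 1.68 ± 0.34, adjusted p = 0.00178, edgeR quasi-likelihood test). All severe fish were above all control fish. The study reports raised HIF-3 alpha in NBH fish and no change of HIF-1 alpha or HIF-2 alpha. The fold changes it gives for HIF-3 alpha are close to those of hif1al here (1.77 in mild hypoxia, and 1.55 in severe hypoxia without fish 5). Whether hif1al is that gene was not tested. The classical subunit hif1aa had 29.1, 27.6, 31.8, 29.1 and 25 CPM in severe fish and 28.4, 25.4, 42.6, 36.4 and 32.4 CPM in control fish (-0.21, 0.426). The genes epas1a and epas1b, the fish genes of HIF-2 alpha, did not pass either (0.25 and 0.67, 0.607 and 0.39). Of the ligase complex that removes the alpha subunits, the scaffold cul2 was raised (0.69 ± 0.19, 0.0192). This call was lost without severe fish 1 or control fish 1 or 3 (adjusted p = 0.0575 to 0.0588) and with the total count as a covariate (0.1). The recognition subunit vhl (0.33, 0.3) and the elongin genes elob and eloca (-0.12 and -0.27) did not pass.

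For 3 further genes the call turned on severe fish 5, and all 3 also passed without TMM factors. That fit raised 10 of the 16 genes of the list, vhl and hif1an among them, and 4216 of all 13609 genes. Passing there is thus not particular to these genes. The dimer partner arnt had 3.45, 3.76, 4.39, 6.16 and 0.177 CPM in severe fish and 1.98, 2.72, 1.78, 2.57 and 1.56 CPM in control fish, so that severe fish 1 to 4 were all above the control fish and fish 5 was lowest of the 10. Its log2 fold change was 0.83 ± 0.39 (adjusted p = 0.156) with all fish and 1.09 (adjusted p = 0.0125) without fish 5. In the same way egln1a, the main prolyl hydroxylase (0.81, adjusted p = 0.0664, against 0.91, 0.035 without fish 5), and the ring subunit rbx1 (0.41, 0.144, against 0.52, 0.049) passed without it. The remaining egln2 was -0.64 (0.358), and hif1an, which hydroxylates an asparagine of HIF, was 0.61 (0.256).

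Of 41 HIF target genes tested, which include egln3, 8 were upregulated and 2 downregulated, with and without fish 5 (median log2 fold change 0.31). Besides pfkfb4b and egln3, the raised genes were bhlhe40, a repressor also known from the clock (1.96 ± 0.39, 0.00151), ddit4, an inhibitor of mTOR signalling (1.90 ± 0.53, 0.018), glycogen synthase gys1 (0.67, 0.0106), the ER oxidase ero1a (0.95, 0.0139), errfi1a, which dampens EGF receptor signalling (1.12, 0.0247), and ndrg1a (1.03, 0.0256). The call of ero1a was lost without severe fish 3 (adjusted p = 0.052) and with the total count as a covariate (0.0799). That of errfi1a was lost without severe fish 1 or 3 or control fish 3 or 4 (adjusted p = 0.0504 to 0.0875) and with the total count as a covariate (0.0944), and that of ndrg1a without severe fish 3 or control fish 2 or 3 (adjusted p = 0.0558 to 0.143) and with the replicate number as a block (0.0501) and with the total count as a covariate (0.136). The level of ddit4 was 269, 626, 1259, 1903 and 2388 CPM in severe fish and 102, 302, 420.2, 482 and 418 CPM in control fish. It was above all control fish in 4 severe fish, and severe fish 1 was below 4 of the controls. The growth factor gene vegfab, which promotes vessel growth and is a textbook HIF target, was downregulated, with 13.7, 13, 8.60, 16.4 and 26.6 CPM in severe fish and 44.1, 32.5, 50.3, 38.8 and 33.9 CPM in control fish (-1.37 ± 0.36, 0.0121). The mitophagy receptor bnip3la also fell, by 0.54 on the log2 scale (0.0106), a call lost without TMM factors (0.646). The tested adma, epoa and igfbp1a, for adrenomedullin, erythropoietin and an IGF binding protein, were -0.11, 0.64 and -0.48 (adjusted p = 0.909, 0.632 and 0.725). All p-values are from the same edgeR test.

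In carbohydrate metabolism, of 25 genes of glycolysis tested, 1 was upregulated, pfkfb4b, and 1 downregulated (median log2 fold change -0.03, or 0.40 without TMM factors). The lactate dehydrogenase gene ldhba did not pass, with a log2 fold change of -0.22 (adjusted p = 0.574, edgeR quasi-likelihood test).

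Of 21 genes of glycogen and gluconeogenesis, 6 were upregulated and 1 downregulated (median log2 fold change 0.06). Without TMM factors 10 were upregulated and 0 downregulated (median 0.49). Their summed level was 7039 ± 851 CPM in severe fish and 8987 ± 1381 CPM in control fish (exact permutation p = 0.0476, n = 5 each, or 0.0794 without severe fish 5). This sum was not tested without TMM factors. Both glycogen-targeting subunits of protein phosphatase 1 named here were raised: ppp1r3b had 439, 507, 718, 672 and 549 CPM in severe fish and 148, 174, 81.3, 126 and 239 CPM in control fish (1.91 ± 0.34, adjusted p = 0.000623). For ppp1r3cb the levels were 306, 292, 744, 804 and 418 CPM in severe fish and 131, 254, 67.8, 220.1 and 140.1 CPM in control fish (1.66 ± 0.44, 0.0139). Both were higher in all 5 severe fish than in any control fish. A smaller increase was found for the glucose-6-phosphate carrier slc37a4a (0.74, 0.0249), a call lost without severe fish 3 or control fish 1 (adjusted p = 0.115 and 0.0565) and with the total count as a covariate (0.15). The gluconeogenic fbp1b, fructose-1,6-bisphosphatase, was downregulated (-0.83 ± 0.18, 0.00317, edgeR test), a call lost without TMM factors (0.089). It averaged 3826 CPM in severe fish and 6822 CPM in control fish, most of the summed level of the list. The fall of fbp1b was larger than that of the sum, and the other members together were higher in severe fish.

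Lipid genes moved in both directions. Of 39 genes of fatty acid and sterol synthesis, 6 were upregulated and 3 downregulated, and 7 and 6 without fish 5 (median log2 fold change 0.31). Acetyl-CoA carboxylase, which makes malonyl-CoA, was raised in both forms: acaca had 304, 109, 221, 239 and 159 CPM in severe fish and 41.8, 44.8, 20.8, 44.3 and 107 CPM in control fish (1.99 ± 0.42, adjusted p = 0.00267). The other form, acacb, rose by 1.11 (0.000252). Stearoyl-CoA desaturase scdb had 693, 368, 1477, 1392 and 1219.6 CPM in severe fish and 178, 236, 18.1, 91.9 and 295 CPM in control fish (2.65 ± 0.80, 0.0255). The call was lost without severe fish 3 or control fish 1, 3 or 4 (adjusted p = 0.0504 to 0.0605). The citrate lyase aclyb was raised too (0.96, 0.00515). Against these, elovl5, the elongase of polyunsaturated fatty acids, fell to 90.4, 58.2, 76.0, 148 and 149 CPM in severe fish, against 349.5, 329, 572, 231 and 398 CPM in control fish (-1.85 ± 0.40, 0.00315). The acyltransferase agpat3 (-1.38, 0.00694) and srebf1, the transcription factor that drives fatty acid synthesis (-1.085 ± 0.23, 0.00312), were lower in all severe fish than in all control fish, by the same edgeR test.

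Of 54 genes of fatty acid oxidation and peroxisomes, 5 (9.26%, against 6.51% of all genes) were downregulated by edgeR's quasi-likelihood test (median log2 fold change -0.24). The counting depended on the scaling, with 10 upregulated and a median of 0.20 without TMM factors. That fit raised 4216 of all 13609 genes, with a median of 0.47. Among the downregulated genes were the isomerase eci2 (-0.64, adjusted p = 0.0142), the dehydrogenase acadsb (-0.58, 0.0199), the electron carrier etfb (-0.57, 0.00891) and the coactivator ppargc1b (-0.97, 0.0473). None of these calls held without TMM factors. The call of acadsb was also lost without control fish 2, that of eci2 without control fish 3. That of ppargc1b was lost without severe fish 1, 2, 3 or 4 or control fish 1, 2, 3 or 5 (adjusted p = 0.0568 to 0.146) and without TMM factors (0.22) and with the total count as a covariate (0.08). The summed level of the list was 2387 ± 225 CPM in severe fish and 3159 ± 355 CPM in control fish (exact permutation p = 0.00794, n = 5 each). This sum was not tested without TMM factors.

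Genes of the mitochondrial genome were lower. The 13 protein-coding genes of mitochondrial DNA took 3.36% ± 1.43 of the counts in severe fish and 5.35% ± 0.53 in control fish (exact permutation p = 0.0397, n = 5 each). Without fish 5, which had 5.76%, the share was 2.76% (exact permutation p = 0.00794). The steepest decrease was in ND3, a subunit of complex I, with 24.3, 13.9, 20.1, 17.7 and 40.1 CPM in severe fish and 227, 166, 187, 150.5 and 294 CPM in control fish (-3.15 ± 0.40, adjusted p = 3.41e-05, edgeR quasi-likelihood test). The other complex I genes ND1, ND4, ND4L, ND5 and ND6 fell by 1.75, 1.48, 1.62, 1.55 and 2.14 on the log2 scale. The cytochrome oxidase genes COX1 and COX2 fell by 0.94 and 1.45 and ATP8 by 1.49, and COX3 was lower as well (-1.096, 0.00325). The call of COX1 (adjusted p = 0.0402) was lost without severe fish 1, 2, 3 or 4 or control fish 1, 3 or 5 (adjusted p = 0.0538 to 0.101) and without TMM factors (0.214) and with the total count as a covariate (0.0601). The others did not pass, namely ND2 (-0.57, 0.145), ATP6 (-0.89, 0.103) and CYTB (-0.26, 0.506), and ATP6 passed without fish 5 (-1.37, 0.00991).

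Of 46 nuclear genes of the electron transport chain and ATP synthase, 7 were downregulated (median log2 fold change 0.06). The counts became 4 downregulated and 4 upregulated without fish 5 and 2 downregulated and 21 upregulated without TMM factors. Their summed level was 3729 ± 720.0 CPM in severe fish and 4626 ± 346 CPM in control fish (exact permutation p = 0.0317, n = 5 each). Severe fish 5 was lowest with 2622 CPM, and without it the exact permutation p was 0.0556. This sum was not tested without TMM factors. The ATP synthase subunit atp5l had 185, 193, 129, 241 and 143 CPM in severe fish and 441, 483, 454, 345 and 448 CPM in control fish (-1.28 ± 0.28, adjusted p = 0.00374). Another subunit, atp5po (-0.98 ± 0.23, 0.00608), and the complex I subunits ndufa11 (-0.81, 0.0141) and ndufa8 (-0.72, 0.00254) were also lower, by edgeR's quasi-likelihood test. The calls of ndufa11 and ndufa8 were lost without TMM factors. Of 23 genes of the TCA cycle, ogdhb, of the 2-oxoglutarate dehydrogenase complex, was the 1 gene raised (1.07, 0.0226), and dlst of the same complex was 1 of 2 lowered (-0.43, 0.018). The call of ogdhb was lost without severe fish 4 or control fish 2, 3 or 4 (adjusted p = 0.0503 to 0.0708), and that of dlst without severe fish 3 or control fish 3 (adjusted p = 0.0561 and 0.058) and without TMM factors (0.988).

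Of 66 genes of amino acid breakdown, 12 were downregulated and 6 upregulated (median log2 fold change -0.25, against 0.18 with 4 downregulated and 18 upregulated when TMM factors were left out). All 13609 genes then had a median of 0.47, with 4216 upregulated and 328 downregulated. Both enzymes that turn threonine into glycine were lowered. The first, tdh, threonine dehydrogenase, had 14, 36.1, 15.2, 39.1 and 38.0 CPM in severe fish and 147, 106, 135, 201 and 34.9 CPM in control fish (-2.14 ± 0.58, adjusted p = 0.0148). The second, gcat, which completes the step to glycine, had 85.0, 68.1, 49.2, 34.7 and 54.6 CPM in severe fish and 151, 55.5, 227, 194 and 93.9 CPM in control fish (-1.31 ± 0.32, 0.00748). Control fish 5 was low in tdh, within the range of the severe fish. Proline dehydrogenase prodha (-1.48, 0.0195), and bckdha and bckdhb of the branched-chain dehydrogenase (-0.83 and -0.74, 0.00106 and 0.00561) were also downregulated. The raised genes included tdo2a of tryptophan breakdown (0.57, 0.0118) and hibadhb of valine breakdown (0.65 ± 0.16, 0.00654, edgeR quasi-likelihood test). The call of prodha was lost without severe fish 1 or 3 or control fish 3 (adjusted p = 0.0504 to 0.0564) and without TMM factors (0.0592) and with the total count as a covariate (0.052). That of bckdhb was lost without TMM factors (0.17).

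Of 56 genes of protein folding in the ER, 20 were raised and 3 lowered (median log2 fold change 0.41), against 7.45% raised over all genes, and 21 and 4 without fish 5. The chaperone hsp90b1 had 306, 389, 269, 261 and 186 CPM in severe fish and 33.7, 37.3, 28.2, 45.1 and 129 CPM in control fish (2.37 ± 0.38, adjusted p = 0.000252). The disulfide isomerase pdia3 had 315, 508, 435, 334 and 212 CPM in severe fish and 122, 106, 80.9, 101 and 160.2 CPM in control fish (1.66 ± 0.23, 6.04e-05). In both genes control fish 5 was the highest control, still below all severe fish. Further raised genes were the isomerases pdia4 (1.52) and p4hb (1.085), the lectin chaperones calr (1.40) and canx (0.85), and the HSP40 proteins dnajb11 (1.16), dnajc3a (0.93) and sec63 (1.15). So were the degradation factors derl1 (0.96) and sel1l (1.01) and the translocon-associated ssr1, ssr2 and ssr4 (0.79, 0.97 and 0.78), with adjusted p-values for these genes from 0.000735 to 0.00426 (edgeR quasi-likelihood test). Their partner hspa5, the HSP70 of the ER, was raised by 0.98 (0.0316), a call lost without severe fish 2 or 3 or control fish 1, 2, 3 or 4 (adjusted p = 0.0509 to 0.0885). Among the lowered genes was eif2ak3, the ER stress kinase PERK (-0.74, 0.0265), a call lost without severe fish 2 or 3 or control fish 2 or 3 (adjusted p = 0.0507 to 0.0791) and without TMM factors (0.334) and with counts thinned to one depth (0.0564). The stress factor xbp1 was -0.36 (0.427). The summed level of the list was 3935 ± 496 CPM in severe fish and 3027 ± 402 CPM in control fish (exact permutation p = 0.0159, n = 5 each).

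Of 47 proteasome genes, 18 were upregulated and 2 downregulated (median log2 fold change 0.48), and 22 and 2 without fish 5. Both the core and the cap were represented. Of the core, psma5 had 18.7, 15.2, 14.7, 13.7 and 6.92 CPM in severe fish and 6.54, 4.90, 3.86, 6.26 and 9.06 CPM in control fish (1.17 ± 0.23, adjusted p = 0.00131), where severe fish 5 fell within the control range. Of the cap, psmc1b (1.04 ± 0.18, 0.000519), psmd2 (0.98 ± 0.18, 0.000908), psmd7 (0.91, 0.000113) and psmd13 (0.86) were raised. The level of psmd2 was 34.9, 34.5, 38.1, 33.3 and 24.5 CPM in severe fish and 14.4, 15, 17.2, 16.2 and 21 CPM in control fish, without overlap. The lowered genes included the assembly factor psmg4 (-0.94, 0.00607), a call lost without TMM factors (0.0557). The summed level was 918 ± 110.5 CPM in severe fish and 683 ± 74.0 CPM in control fish (exact permutation p = 0.0159, n = 5 each).

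Of 54 cytosolic chaperone genes, 7 were raised and 1 was lowered. Among the raised genes was fkbp5, a cochaperone of steroid receptors that glucocorticoids are known to induce, with 44.6, 76.8, 130.1, 366 and 389.6 CPM in severe fish and 43.5, 25.9, 27.2, 32.2 and 59.5 CPM in control fish (2.41 ± 0.46, adjusted p = 0.00116). Severe fish 1 lay within the control range and severe fish 4 and 5 far above the other 8 fish. The HSP70 family member hspa4a (2.09 ± 0.51, 0.0076) and the HSP40 dnajb1b (1.98 ± 0.40, 0.00178) were raised as well. The heat shock factor hsf1 was lowered (-0.65, 0.0229), a call lost without severe fish 1, 2 or 3 or control fish 2 or 3 (adjusted p = 0.0509 to 0.0744) and without TMM factors (0.465) and with the total count as a covariate (0.0575). Outside the rule by which genes were chosen, hsp90aa1.2, an inducible cytosolic HSP90, averaged 8.68 CPM in severe fish and 0.379 CPM in control fish (4.48, 0.00117). It was picked after its values were seen. All p-values are from edgeR's quasi-likelihood test.

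Among genes of the translation machinery, 8 of 76 cytosolic ribosomal protein genes were downregulated (median log2 fold change -0.10, or 0.32 with 24 upregulated and 4 downregulated without TMM factors). Over all 13609 genes the fit without TMM factors had 4216 upregulated and 328 downregulated (median 0.47). Without fish 5 the median of the ribosomal protein genes was 0.03, with 6 downregulated and 1 upregulated. The largest decrease was that of rpl29, which had 1068, 1150.2, 751, 1633 and 1212 CPM in severe fish and 3181, 3787, 5907, 2239 and 3574 CPM in control fish (-1.68 ± 0.39, adjusted p = 0.00495), followed by rps21 (-1.28) and rpl36 (-1.23), each lower in all severe fish than in all control fish. Of 103 ribosome biogenesis genes, 7 were raised and 7 lowered (6.8% each, 15 and 7 without fish 5, median log2 fold change 0.20). Without TMM factors 54 of them were raised and 2 lowered (median 0.63). Their summed level was 2674 ± 330.2 CPM in severe fish and 3437 ± 499 CPM in control fish (exact permutation p = 0.0159, n = 5 each). This sum was not tested without TMM factors. The lower sum went in large part with rsl24d1, which had 432, 585, 303, 725 and 616 CPM in severe fish and 993, 1087, 1382, 833 and 912 CPM in control fish. The call of rsl24d1 (adjusted p = 0.0235) was lost without severe fish 1 or 3 or control fish 3 (adjusted p = 0.0539 to 0.0724) and without TMM factors (0.115). The lowered members included rcl1, an enzyme of rRNA processing, with 56.7, 71.5, 61.2, 86.6 and 74.5 CPM in severe fish and 180.3, 203, 293, 240.1 and 122 CPM in control fish (-1.57 ± 0.28, 0.000623), and polr1f, a subunit of RNA polymerase I (-1.26, 0.00193). The raised members included the RNA polymerase I factor ubtf (0.73, 0.00774) and noc2l (0.79, 0.00325), whose calls were lost with counts thinned to one depth. Of 41 genes of translation initiation and its control, 6 were raised, among them the scaffold eif4g1a (0.84 ± 0.15, 0.000648) and the regulator paip2b (0.86). The cap-binding inhibitors eif4ebp2 (-0.91 ± 0.19, 0.00212) and eif4ebp1 (-0.67) were lowered. The call of eif4ebp2 was lost without TMM factors (0.0537), and that of eif4ebp1 without control fish 3 (adjusted p = 0.0839) and without TMM factors (0.337). All p-values of single genes are from the edgeR test.

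Of 106 splicing factor genes, 14 were upregulated and 5 downregulated (24 and 6 without fish 5, median log2 fold change 0.29). The spliceosome protein crnkl1 had 10.3, 8.80, 9.28, 6.81 and 7.10 CPM in severe fish and 4.90, 3.81, 3.86, 4.97 and 4.38 CPM in control fish (0.95 ± 0.17, adjusted p = 0.000735, edgeR quasi-likelihood test). The splicing regulators hnrnpm (0.87) and srsf3b (0.87) were also higher in all severe fish than in all control fish. The lowered sf3b5 was -0.88 (0.0228), a call lost without severe fish 3 or control fish 3 (adjusted p = 0.0661 and 0.0505) and without TMM factors (0.145). The member with the largest decrease was srsf1a (-1.24, 0.000862).

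Of 46 immediate early and stress genes, 7 were upregulated and 4 downregulated (15.2% and 8.7%, against 7.45% and 6.51% of all genes). The transcription factor jun had 4.68, 1.85, 13.2, 15.6 and 25.7 CPM in severe fish and 0.934, 0.544, 0.594, 0.962 and 0.860 CPM in control fish (3.90 ± 0.69, adjusted p = 0.000614). It was higher in all severe fish than in all controls, with severe fish 2 nearest to them. Its usual partner fosab was 0.15 (0.923) and egr1 was 0.82 (0.524). The stress factor maff was raised (1.48, 0.00548). The kinase sgk1, which responds to salt and corticosteroids, was lowered (-2.13, 0.0362), a call lost without severe fish 1, 3 or 4 or control fish 3 or 4 (adjusted p = 0.061 to 0.104) and with the total count as a covariate (0.0593).

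Of 32 genes of the circadian clock, 11 were upregulated and 2 downregulated (10 and 2 without fish 5, median log2 fold change 0.40). In 10 of these 13 the groups did not overlap, as in 52.3% of all 1900 genes called. The repressor per1b had 25, 35.2, 50.9, 38.8 and 59.4 CPM in severe fish and 10.7, 12, 7.57, 11.7 and 12.4 CPM in control fish, so that the lowest severe fish was above the highest control fish (1.94 ± 0.25, adjusted p = 3.72e-05). The repressor cry1b had 18.8, 24.2, 26.8, 110.4 and 106 CPM in severe fish and 17, 11.4, 10.5, 10.9 and 9.77 CPM in control fish (2.25 ± 0.50, 0.00369), again with fish 4 and 5 far above the others. The nuclear receptor nr1d1 (2.02 ± 0.37, 0.000773), cry2 (0.96, 0.000766) and the activator dbpb (1.11, 0.00117) were raised, and the repressors nfil3-2 (-1.40, 0.0136) and nfil3-5 (-1.35, 0.017) were lowered, all by the edgeR test. The call of nfil3-5 was lost without severe fish 3 (adjusted p = 0.0539) and without TMM factors (0.0575). The hour of day at which each group was sampled is not given in the sources used here.

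Severe hypoxia was then tested against mild hypoxia in NBH fish (10% oxygen, 5 fish), using the same severe fish. Of the 13609 genes, 265 (1.95%) differed, 180 (1.32%) higher and 85 (0.625%) lower in severe hypoxia, and 167 (1.23%) without severe fish 5, of which 109 (0.801%) were higher. It was 11 when only the 10 libraries compared were fitted. It was also sensitive to single fish, being 434 and 143 without severe fish 1 and 4 and 133, 145, 482, 109 and 164 without mild fish 1 to 5. A total of 102 genes passed both this test and that against control. Among them, jun had 4.68, 1.85, 13.2, 15.6 and 25.7 CPM in severe fish and 1.15, 1.39, 0.756, 1.70 and 0.690 CPM in mild fish, a log2 fold change of 3.37 (adjusted p = 0.00345). For bhlhe40 the values were 3.94, 8.93, 8.43, 20.9 and 14.9 CPM in severe fish and 1.72, 1.22, 1.05, 1.85 and 1.79 CPM in mild fish (2.89, 0.000185). For per1b they were 25, 35.2, 50.9, 38.8 and 59.4 CPM in severe fish and 6.77, 6.67, 8.60, 9.63 and 9.66 CPM in mild fish (2.34, 6.64e-06). The difference between mild and control fish did not pass in jun, bhlhe40 and per1b (log2 fold changes 0.53, -0.93 and -0.40, 0.641, 0.104 and 0.26). The gene miox had 6.48, 17.5, 1068, 356 and 106 CPM in mild fish, from the severe range nearly to the highest control, and was lower in severe fish (-4.31, 0.0342), a call lost without severe fish 5 (0.0773). Also different were ND3 (-2.498, 0.000773), mibp (2.28, 0.00865), dnajb1b (1.66, 0.0189), nr1d1 (1.52, 0.0188), pik3r1 (1.15, 0.0436) and polr1f (-1.085, 0.0228), all by edgeR's quasi-likelihood test. The call of pik3r1 was lost without severe fish 5 (0.126).

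**Figure D3:**
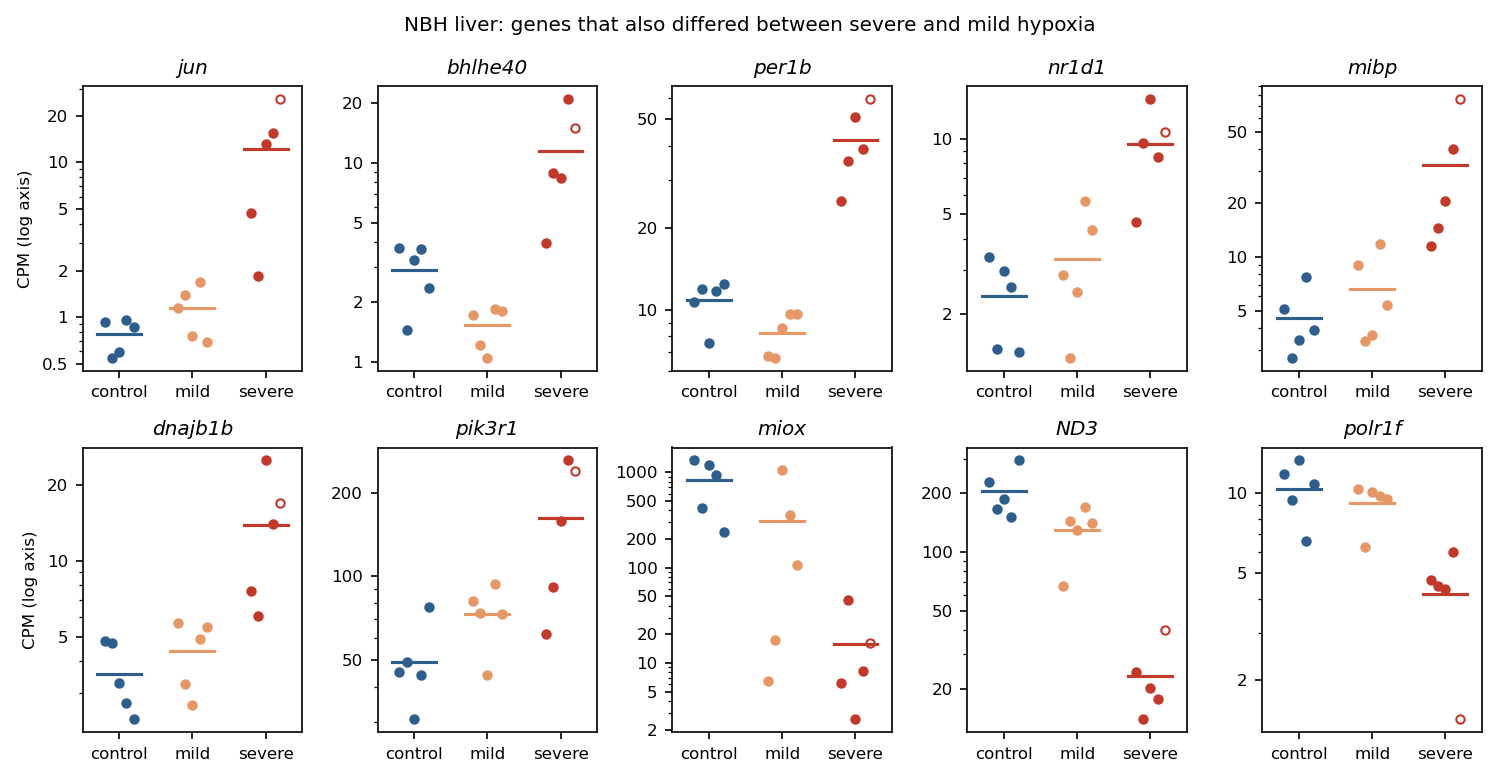
CPM per fish (log axis) in NBH control, mild hypoxia and severe hypoxia livers (severe fish 5 open, lines are means) for 10 genes called both between severe hypoxia and control and between severe and mild hypoxia, the second call being lost without severe fish 5 in miox and pik3r1. In jun, bhlhe40, per1b and ND3 the severe fish lie apart from both other groups, and miox is spread over the whole range in mild fish.

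Other genes had values close to those at mild hypoxia. In mild hypoxia 2860 genes (21%) differed from control. Set against the same control fish, the log2 fold changes in severe and mild hypoxia were 5.15 and 4.89 for elovl6, 1.68 and 1.77 for hif1al, 1.91 and 1.96 for ppp1r3b, 1.66 and 1.63 for pdia3, 1.04 and 1.30 for psmc1b and -1.37 and -1.70 for vegfab. The test between severe and mild hypoxia did not pass in these genes (adjusted p = 0.473 to 0.971), which does not show that the levels were equal. The 2 fold changes of a gene share their controls and are not independent. Mild fish 3 lay within the control range in elovl6 (7.09 CPM, against 137 to 378 CPM in the other mild fish) and hif1al (32.0 CPM). It lay outside that range in ppp1r3b, pdia3, psmc1b and vegfab.

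Collagens are the main fibres of the extracellular matrix. Of 18 collagen genes, 9 were downregulated, with and without fish 5 (median log2 fold change -1.30), and 8 without TMM factors. As well as type I, the chains col6a1 (-1.98, adjusted p = 0.000548), col6a2 (-1.89) and col6a4a (-1.79) of type VI and col5a1 of type V (-1.93, 0.0073) passed. The summed collagen level was 45.0 ± 10.7 CPM in severe fish (34.9 to 59.5) and 154 ± 27.2 CPM in control fish (117 to 184), without overlap (exact permutation p = 0.00794, n = 5 each). Of 58 other matrix genes, 6 (10.3%) were lowered and 4 (6.9%) raised (median log2 fold change -0.18, or 0.23 with 7 raised and 6 lowered without TMM factors). The proteoglycan dcn, decorin, fell to 31.5, 12.8, 12.5, 24.7 and 23.2 CPM in severe fish, against 40.03, 52.4, 57.9, 61.1 and 45.5 CPM in control fish (-1.29 ± 0.26, 0.00154). The membrane protease mmp14a fell by 2.46 on the log2 scale (0.000157). The protease mmp19 was raised (1.77, 0.0391), a call lost without severe fish 2 or 3 or control fish 1, 2, 3 or 4 (adjusted p = 0.0511 to 0.149) and with the total count as a covariate (0.0602). All gene p-values are from the edgeR test.

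Markers of stromal cells, the usual source of collagen, were lowered in 4 of 15 tested genes, and 6 without fish 5, while without TMM factors 2 were lowered and 1 raised. Their summed level was 64.4 to 351 CPM in severe fish and 175 to 249 CPM in control fish (exact permutation p = 0.286, n = 5 each), and the highest value was that of severe fish 5. Without it the severe fish had 64.4 to 134 CPM and did not overlap the controls (exact permutation p = 0.00794). The lowered genes included s100a10a (-2.31 ± 0.34) and colec11, a lectin of stellate cells (-1.13 ± 0.19, 0.00046, edgeR quasi-likelihood test), while hand2, cspg4, cygb2, ddr2a and ngfra of the list were at 0 in all 10 fish. The part of stromal cells in the fall of the collagen genes was not tested.

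Red blood cell markers were lowered in 4 of 13 tested genes (median log2 fold change -0.98). The carbonic anhydrase cahz had 2.02, 1.85, 3.85, 1.75 and 2.84 CPM in severe fish and 8.40, 13.6, 12.2, 4.65 and 8.67 CPM in control fish (-1.95 ± 0.40, adjusted p = 0.00226). The blood cell factor tal1 (-1.90 ± 0.33, 0.000501) and the ammonia channel rhag (-1.58 ± 0.30, 0.00118) were lower too, by edgeR's quasi-likelihood test. The summed level was 57.1 to 85.9 CPM in severe fish and 85.8 to 131 CPM in control fish (exact permutation p = 0.0159, n = 5 each), with slc4a1b at 0 in all fish. Immune cell markers were lowered in 2 of 19 genes (10.5%, against 6.51% of all genes), and without TMM factors 1 was lowered and 2 raised. Their summed level was 27.5 to 56.3 CPM in severe fish and 45.5 to 86.6 CPM in control fish (exact permutation p = 0.0238, or 0.0556 without severe fish 5). Endothelial markers (2 of 23 lowered and 1 raised, 91.2 to 121 CPM in severe fish and 101 to 142 CPM in control fish, p = 0.460), biliary markers (8 genes tested, p = 0.587), skeletal muscle markers (2 of 10 lowered, p = 0.595) and exocrine pancreas markers (6 genes tested, p = 0.802) did not pass the exact permutation test of the summed level. Exocrine pancreas markers reached 802 CPM in severe fish 1 and 585 CPM in control fish 1, against 106 to 191 CPM in the other severe fish. The muscle markers myog and myod1, cftr of the biliary list, esamb of the endothelial list and ins and gcgb of the pancreas list were at 0 in all fish.

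**Figure D4:**
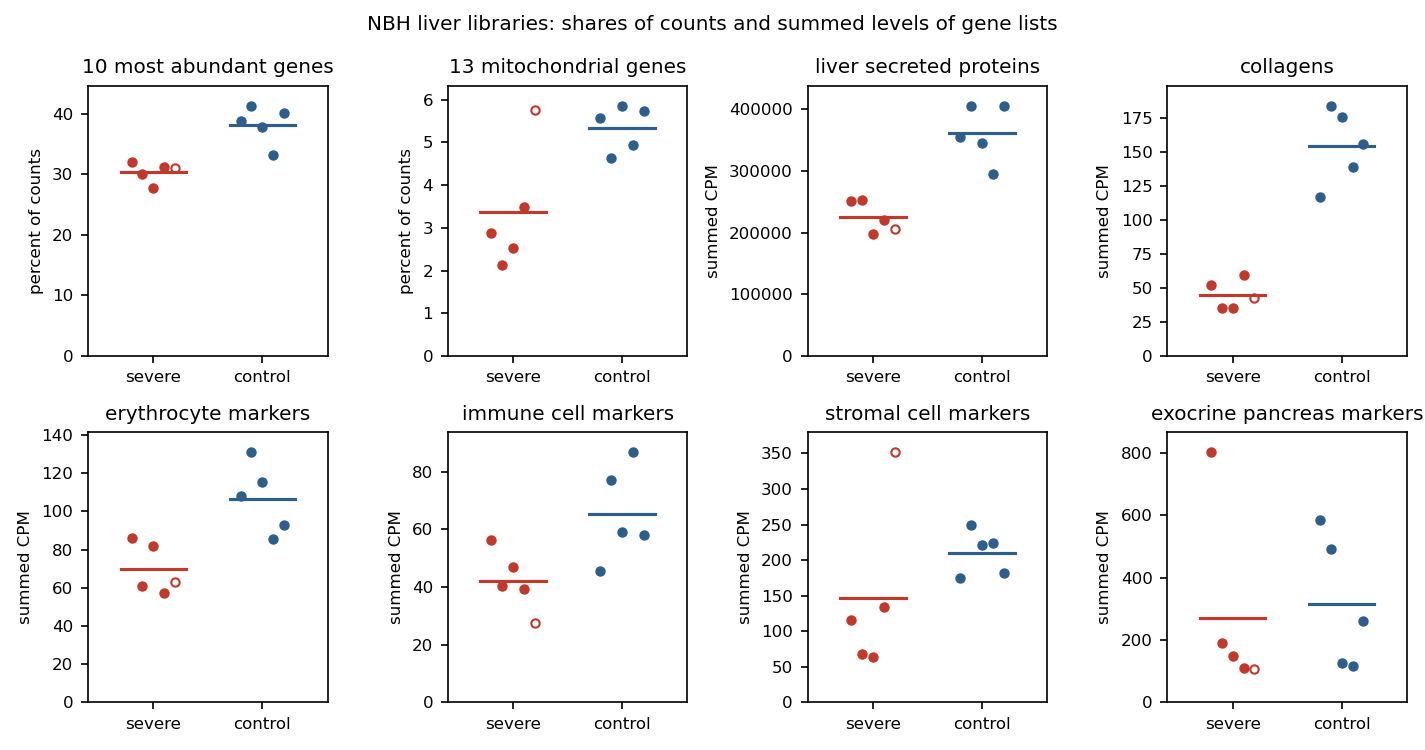
Composition of the 10 NBH liver libraries: percent of counts in the 10 most abundant genes and in the 13 mitochondrial genes, and summed CPM of gene lists, per fish (severe left, fish 5 open, control right, lines are means). Abundant genes, liver secreted proteins and collagens do not overlap between the groups, and severe fish 5 stands out in mitochondrial genes and stromal markers.

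The identity of the tissue was plain in both groups, as the 53 tested genes of mostly secreted liver proteins summed to 225454 ± 25178 CPM in severe fish and 361234 ± 45890 CPM in control fish (exact permutation p = 0.00794, n = 5 each). In number, 5 were upregulated and 5 downregulated (9.43% each, against 7.45% and 6.51% of all genes, median log2 fold change 0.06). The lower sum went with lower levels of the most abundant members. The apolipoprotein gene apoc1, the most abundant gene in control liver, had 57725, 43712, 33328, 56516 and 50206 CPM in severe fish and 118710, 146362, 105857, 72715 and 153986 CPM in control fish (-1.31 ± 0.27, adjusted p = 0.00188). The gene apoa2 averaged 49581 CPM in severe fish and 85981 CPM in control fish (-0.79, 0.00118). The liver fatty acid binding protein fabp10a, a member of the list that is not secreted, averaged 18946 CPM in severe fish and 35531 CPM in control fish (-0.91, 0.00694), a call lost without TMM factors (0.055). The transferrin gene tfa averaged 44727 CPM in severe fish and 45990.1 CPM in control fish (-0.04, 0.902). The raised genes included the complement component c7b (1.42, 0.0139), apoc2, an activator of lipoprotein lipase (0.91, 0.00561), the clotting factor f9a (0.82, 0.0144) and agt (0.63, 0.0113). The calls of c7b and f9a were lost without severe fish 3 (adjusted p = 0.0593 and 0.0575). All p-values of genes are from the edgeR test.

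Of 37 genes of iron and heme, 4 were downregulated and 1 upregulated (10.8% and 2.7%, against 6.51% and 7.45% of all genes, median log2 fold change 0.03). Without TMM factors the balance turned round, with 13 upregulated and 1 downregulated (median 0.47). The same fit raised 4216 and lowered 328 of all 13609 genes (median 0.47), so this turn is not particular to the list. The importer slc11a2 had 14.4, 4.85, 4.97, 12.8 and 17.9 CPM in severe fish and 46.7, 50.04, 54.8, 33.8 and 64.5 CPM in control fish (-2.20 ± 0.39, adjusted p = 0.000645). The ferritin gene fth1b was lower (-1.102, 0.00548), a call lost without TMM factors (0.0506). The exporter slc40a1, ferroportin, had 45.3, 51.0, 49.2, 50.3 and 61.2 CPM in severe fish and 186, 169.5, 90.8, 139 and 84.0 CPM in control fish (-1.38, 0.0429), without overlap. Its call was lost without severe fish 1, 2, 3 or 4 or control fish 1, 2 or 4 (adjusted p = 0.0632 to 0.0968) and without TMM factors (0.101), with the total count as a covariate (0.114) and with counts thinned to one depth (0.0506). The raised gene was cpox, an oxygen-using enzyme of heme synthesis, with 8.43, 21.6, 7.98, 10.3 and 11.9 CPM in severe fish and 2.45, 1.45, 3.12, 4.81 and 2.5 CPM in control fish (2.07 ± 0.41, 0.00161, edgeR quasi-likelihood test).

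In insulin and mTOR signalling, 7 of 51 genes (13.7%) were upregulated and 3 (5.88%) downregulated (7 and 7 without fish 5). The regulatory subunit of PI3 kinase pik3r1 had 62.0, 91.4, 159, 261 and 238 CPM in severe fish and 45.4, 49.3, 30.6, 44.3 and 77.3 CPM in control fish (1.71 ± 0.31, adjusted p = 0.000735), with severe fish 4 and 5 highest and fish 1 lowest, as in fkbp5, ddit4 and cry1b. The insulin receptor insra was raised (0.56, 0.0139), a call lost with counts thinned to one depth (0.073). The AMP kinase subunits prkaa1 (-1.098 ± 0.30, 0.0169) and prkab1a (-1.07, 0.0226) were lowered. The call of prkaa1 was lost without severe fish 3 or control fish 3 (adjusted p = 0.0539 and 0.0642) and without TMM factors (0.0894). That of prkab1a was lost without severe fish 2 or 3 or control fish 1 (adjusted p = 0.0522 to 0.0673) and without TMM factors (0.117) and with the total count as a covariate (0.0578).

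Of 72 genes of the lysosome and autophagy, 6 (8.33%) were raised and 7 (9.72%) lowered, and 14 and 10 without fish 5 (median log2 fold change 0.13). Their summed level was 4552 ± 1126 CPM in severe fish and 9103 ± 1409 CPM in control fish (exact permutation p = 0.00794, n = 5 each). The fall of this sum was that of ctsf alone, and the other members together were not lower in severe fish. The autophagy marker map1lc3a had 75.7, 51.9, 90.3, 70.02 and 65.5 CPM in severe fish and 32.1, 33.0, 31.5, 35.3 and 39.5 CPM in control fish (1.04 ± 0.17, adjusted p = 0.000236, edgeR quasi-likelihood test). The conjugation genes atg3 (-0.94, 0.000143), atg4c (-1.48 ± 0.30, 0.00184) and atg12 (-1.01, 0.00575) were lowered, of which the call of atg12 was lost without TMM factors (0.0585). The protease gene ctsf, whose level was the bulk of the list, had 1949, 4716, 2697, 1758 and 2526 CPM in severe fish and 7693, 6677, 5801, 9539 and 7116 CPM in control fish (-1.43 ± 0.24, 0.000347).

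In the AHR pathway, through which the local pollutants act, 1 of 7 tested genes was raised (14.3%, against 7.45% of all genes), and 2 without fish 5. The receptor gene ahr2 had 30.2, 24.2, 27.2, 39.5 and 35.1 CPM in severe fish and 17.7, 14.3, 19.7, 13.8 and 19.7 CPM in control fish, without overlap (0.87 ± 0.17, adjusted p = 0.00174). Among 12 genes of DNA methylation, the maintenance enzyme dnmt1 was raised (0.99, 0.00725) and the reader mbd3a lowered (-0.82, 0.00624), calls that were lost with counts thinned to one depth, that of mbd3a also without TMM factors (0.124), and tet3 was 0.50 (0.432). Of 47 antioxidant genes, 5 were raised and 2 lowered (10.6% and 4.26%, against 7.45% and 6.51% of all genes). The repair enzyme msra (0.85 ± 0.18, 0.00262) was higher in all severe fish than in all controls, and the mitochondrial sod2 was lower (-0.73, 0.00549), a call lost without TMM factors (0.17). Of 66 cell cycle genes, 1 was raised and 3 were lowered, against 12 raised without TMM factors (median log2 fold change 0.28, summed level 553 ± 56.9 CPM in severe fish and 673 ± 67.3 CPM in control fish, exact permutation p = 0.0317, n = 5 each). Of all 13609 genes, 4216 were raised without TMM factors, and the cell cycle sum was not tested without them. All p-values of genes are from edgeR's quasi-likelihood test.

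The response of NBH fish was set against that of SC fish, in which 3909 genes (28.7%) differed between severe hypoxia and control (5 fish each). A test of the difference between the populations gave 1 gene of 13609 (0.00735%), or 2 (0.0147%) without NBH severe fish 5, while 1491 genes had an unadjusted p under 0.05 and DESeq2 called 65. The gene was LOC105934894 (chromosome 7, bases 21550315 to 21610792). Its mean level was 4.26 CPM in NBH severe fish and 3.10 CPM in NBH control fish, and 1.54 CPM in SC severe fish and 4.87 CPM in SC control fish. This is a difference of the log2 fold changes of 2.13 ± 0.32 (SE, adjusted p = 0.00394, edgeR quasi-likelihood test). Without NBH severe fish 5 the second gene was tbx2b, a T-box transcription factor on an unplaced scaffold, with log2 fold changes of -0.66 in NBH and 3.76 in SC fish and an adjusted p for the difference of 0.00405 (0.0725 with fish 5). For the genes described above the population difference did not pass. The log2 fold changes in NBH and SC fish were 3.90 and 4.69 for jun, -3.41 and -4.36 for col1a1b and 2.37 and 2.65 for hsp90b1. They were -5.72 and -1.89 for miox (difference -3.82, 0.316), 2.79 and 0.39 for pfkfb4b (difference 2.40, 0.219) and -1.37 and -0.01 for vegfab (difference -1.36, 0.318). A p-value that misses the threshold does not show that the populations respond alike.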

How the data were processed

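RNA-seq of single livers was analysed from the deposited tables of raw counts per gene. Per the labels and the study's methods, the authors sequenced stranded 50 bp single-end libraries, trimmed reads with Trimmomatic, aligned them with STAR and counted them with HTSeq-count. Symbols and positions came from the RefSeq gene table of MU-UCD_Fhet_4.1. Of the gene names in the count tables, 32227 were found in it, and LOC genes are given by ID only.

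Of 34089 genes, the 13609 kept by filterByExpr with 6 groups were fitted over all 30 RNA libraries with a mean for each group of 5 fish (edgeR 4.0.16 with limma 3.58.1 in R 4.3.3, legacy quasi-likelihood F test, TMM scaling), with adjusted p under 0.05 as the threshold. Each SE was the log2 fold change divided by the square root of F. The same genes were refitted without NBH severe replicate 5, the library with the fewest counts (4.96 M) and so the least precise, against up to 19.2 M. Levels per fish and summed levels of lists were compared by exact permutation tests, two-sided. These tests were planned for cell marker lists and shares of counts. Sums of the other lists were added, and only some are described. These added sums were not tested without TMM factors. Sums that are not described passed for oxygen sensing, HIF targets and the clock (exact permutation p = 0.0317, 0.0238 and 0.0159). For the remaining lists they did not pass (exact permutation p = 0.0556 to 0.984). The fit was tested on simulated data. Replicate numbers were not treated as pairs, since the labels do not say that they pair the fish.

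The comparison, the gene lists and the rules were chosen with earlier results of these data known. Genes were named by a fixed rule: up to 12 largest changes per direction at 10 CPM or more, called with and without severe replicate 5 and separated from the controls in the other severe fish; up to 3 per list and direction at 5 CPM or more, called in both fits; all tested oxygen-sensing genes, a few preset genes, and 3 LOC genes per direction. This gave 147 genes, of which 144 entered the alternatives and most are described here, and 61 others were named after their values were seen. Alternatives were other scalings, tests (DESeq2 1.42.0), filters, depth corrections, a replicate block and leaving out each library; fits of 29 libraries with a second change were added after seeing the data. Promoter sequences were not used here.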

Additional observations from a re-analysis of the deposited data

Results flagged for a closer look

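In groups of 5 fish, a value was listed where its gap to the nearest other fish took up over 0.71 of the range of the group. Of 428 combinations of a value and a group, 33 met this, against 21.4 if 1 in 20 did so by chance. There were 12 in severe fish, 7 of them in fish 5, and 21 in control fish, 10 of them in fish 5.

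Severe fish 5 had the lowest total count, 4.96 M, and the highest levels of its group for ppargc1b (36.5 CPM), ND4 (922 CPM), insra (18.6 CPM), tbx2b (28.9 CPM) and summed stromal markers (351 CPM), and the lowest of glsa (4.97 CPM). In the other severe fish, paip2b was high in fish 1 (54.5 CPM), as were the exocrine pancreas markers (802 CPM), mmp19 and cpox were high in fish 2 (145 and 21.6 CPM), and fish 3 was low in mgll (9.41 CPM).

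Control fish 5 stood above the other controls in elovl6 (18.2 CPM), acaca (107 CPM), srsf3b (16.4 CPM), ND6 (34.2 CPM) and 6 genes of protein folding and transport in the ER, namely hsp90b1 (129 CPM), calr (80.3 CPM), dnajc3a (42.7 CPM), hspa5 (35.6 CPM), ssr2 (101 CPM) and ssr4 (158 CPM). Control fish 5 also had the deepest control library, 16.5 M counts, against 7.22 to 10.7 M in the other controls. The part of depth in its values was not tested. Control fish 1 was high in cry1b (17.04 CPM) and tfe3b (5.72 CPM), and control fish 2 in eif2ak2 (61.1 CPM) and acta1b (47.3 CPM), while epas1b was at 0 in control fish 2. Control fish 3 was high in ppargc1b (55.7 CPM) and eif4ebp1 (50.02 CPM). Control fish 4 was high in LOC105922913 (0.802 CPM), pgd (12.7 CPM) and fosab (14.3 CPM) and low in atg3 (64.003 CPM).

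The log2 fold change of LOC105934894 was higher in NBH than in SC fish by 2.13, the 1 gene in which the test of the difference between the populations passed.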

How the results depend on the processing

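Against 1900 genes called between severe hypoxia and control (1014 up, 886 down), there were 4544 without TMM factors (4216 up, 328 down), 993 with only the 10 libraries fitted (443 up, 550 down) and 24 with the fold change tested against 1 (10 up, 14 down). Leaving out 1 fish gave 1268 to 2431 (696 to 1282 up, 561 to 1149 down). Of alternatives added after seeing the data, 29 libraries gave 546 with the total count as a covariate (246 up, 300 down), 4815 without TMM factors (4404 up, 411 down) and 1418 down with DESeq2. DESeq2 with 30 libraries gave 2164, DESeq2 size factors 1882, the newer quasi-likelihood method 2049, no filter 1429, the covariate 1558 and thinned counts 1387. Against 265 genes between severe and mild hypoxia, there were 451 without TMM factors, 645 with DESeq2, 167 with no filter, 140 with thinned counts, 11 with only the 10 libraries, 3 tested against a fold change of 1, 174 with 29 libraries and the covariate, and 109 to 482 without 1 fish. Against 1 gene for the population difference, there were 65 with DESeq2, 7 with the newer method, 2 with no filter, 2 with the covariate and 1 to 8 without 1 fish. With 29 libraries it was 82 with DESeq2, 2 with the covariate and 2 without TMM factors. It was 0 with thinned counts, tested against a fold change of 1 and with only the libraries compared, with 1330, 320 and 1305 genes at an unadjusted p under 0.05 by edgeR. The causes were not tested. With the replicate number as a block, 1696 genes were called between severe hypoxia and control (890 up, 806 down), 194 between severe and mild hypoxia and 1 for the populations. The labels do not say that the numbers pair the fish. Deviations of severe and control fish of the same number correlated between -0.09 and 0.07. Only 1 severe fish correlated best with the control fish of its own number. With so few fish this cannot decide whether the numbers carry an order of handling. Of 205 genes carried through DESeq2, DESeq2 size factors, no TMM factors, the covariate, thinned counts, the block and each fish left out, no called gene changed direction; 35 lost the call without TMM factors, 25 with the covariate, 15 with thinned counts, 5 with the block and up to 35 without 1 fish (severe fish 3). The summed endothelial markers stood at a ratio of 1.27 of severe to control without TMM factors (exact permutation p = 0.0476), and below 1 with them. The small library of severe fish 5 limits what can be read from genes of low level.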

Other observations

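In NBH severe hypoxia, genes that span less of the genome were more often lowered and longer ones more often raised. With the genes ranked by their span from first to last base and split into 4 groups of equal size, in the group of shortest span 5.61% were raised and 8.70% lowered in severe hypoxia (median log2 fold change -0.06), and in that of longest span 8.91% were raised and 4.88% lowered (median 0.10). Without severe fish 5 the shares were 7.0% raised and 9.79% lowered for the shortest, and 10.2% raised and 7.35% lowered for the longest. In NBH mild hypoxia against control the medians went the other way, with 0.06 for the shortest and -0.10 for the longest. In SC severe hypoxia against control they were -0.05 and 0.01.

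The share of called genes was 3.11% raised and 2.91% lowered among the lowest of 4 such groups ranked by mean CPM, and 9.70% raised and 11.9% lowered in the highest. By chromosome, the share of tested genes called lay between 9.62% on chromosome 21 and 17.7% on chromosome 17.

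In fkbp5, cry1b, ddit4, pik3r1 and pfkfb4b, severe fish 4 and 5 had the highest levels and fish 1 the lowest of the severe group. Over all 1014 raised genes, the highest severe fish was fish 1 to 5 in 131, 191, 274, 163 and 255 genes, and the lowest was fish 1 to 5 in 186, 233, 92, 169 and 334 genes. These genes were picked after their values were seen.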
